A study of Mus musculus with 12 samples.

Results

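Thrombospondins and other matricellular proteins are secreted proteins that bind the extracellular matrix and cell surface receptors without forming the structural scaffold themselves. The genes described here are Thbs1, Thbs2, Thbs3, Thbs4 and Comp, which encode the thrombospondin family, Sparc and its relative Sparcl1, the tenascin gene Tnc, and Postn, which encodes periostin. These 9 genes were chosen by name out of 35999 gene rows, with earlier results of the same comparison known, so their differences between the groups are given as a description. RNA was measured in 12 tumours grown under the skin from AB1-HA cells, a mouse mesothelioma line that carries influenza haemagglutinin, in male BALB/c mice of 8 to 10 weeks. In the anti-CD4 group, 6 tumours came from mice given 100 µg of an antibody against CD4 on days -3, 0 and 7 relative to inoculation, and in the PBS group 6 tumours came from mice given the vehicle at those times. All tumours were taken on day 9, and both groups otherwise share the strain and the tumour line. All tumours come from 1 transplanted line, and a whole tumour mixes its cells with those of the host, so the level of a gene cannot be assigned to either.

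The family divides by structure and role. Thbs1 and Thbs2 encode trimeric proteins with type 1 repeats, whereas Thbs3, Thbs4 and Comp encode pentameric proteins without those repeats. The trimeric proteins bind CD36, through these repeats, and CD47, and restrain the growth of blood vessels. The pentameric proteins are found in tendon, muscle, cartilage and other connective tissue. SPARC binds collagen and is needed for its orderly assembly, tenascin-C appears in healing and tumour stroma, and periostin binds collagen, fibronectin and tenascin-C. Fibroblasts are a main source of most of these proteins in solid tumours.

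All 9 genes had enough counts to be tested, among 17940 such genes. Totals of estimated counts ran from 34.45 to 62.06 M (mega counts, M) in anti-CD4 tumours and from 30.75 to 41.93 M in PBS tumours. Depth was higher in anti-CD4 tumours, with a mean of 46.4 ± 10.04 M against 36.08 ± 4.03 M in PBS tumours (SD, n = 6 each, exact two-sided permutation p = 0.039). Cd4, the gene of the antigen, fell by 2.26 on the log2 scale in anti-CD4 tumours (edgeR adjusted p = 0.00298). Msln, the mesothelin gene, was at 92.6 to 155 CPM (a count scaled to the size of its library) in anti-CD4 and 94.7 to 140 CPM in PBS tumours, while the mesothelial markers Upk3b, Krt18 and Krt19 were too low to be tested. Nothing in the labels ties a tumour to a litter, day or batch. The labels also do not tie each tumour to a mouse of its own, so p-values measure the spread between these samples.

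Promoters are shown for Thbs4 and Tnc, the members with the largest positive differences between the groups, and for Thbs2, the most highly expressed thrombospondin. Each is the 250 bases before a RefSeq transcription start (GRCm38.p6), written in the direction of the gene, and none of these windows overlaps a GENCODE exon of its gene. The RefSeq start of Thbs2 is not the start of a GENCODE transcript. Capitals mark any match, on either strand, to 6 short motifs. The TATA box was searched as TATAAA. The CCAAT box was searched by the letters of its name. The GC box was searched as GGGCGG. The AP-1 motif was searched as TGANTCA. The TEAD motif was searched as CATTCC. The GGA box was searched as GGAGGA.

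Thbs4, chr13:92794819-92795068, minus strand: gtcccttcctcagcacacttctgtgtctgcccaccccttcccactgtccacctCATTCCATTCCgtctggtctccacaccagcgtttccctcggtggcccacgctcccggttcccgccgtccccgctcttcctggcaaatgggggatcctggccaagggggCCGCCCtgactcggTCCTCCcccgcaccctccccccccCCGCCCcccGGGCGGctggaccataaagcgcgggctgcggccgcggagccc
Thbs2, chr17:14694263-14694512, minus strand: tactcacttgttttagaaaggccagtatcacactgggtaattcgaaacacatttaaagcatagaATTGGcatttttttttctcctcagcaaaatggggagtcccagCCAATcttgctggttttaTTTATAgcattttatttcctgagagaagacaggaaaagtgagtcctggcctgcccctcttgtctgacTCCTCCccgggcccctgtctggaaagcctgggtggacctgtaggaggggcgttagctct
Tnc, chr4:64047016-64047265, minus strand: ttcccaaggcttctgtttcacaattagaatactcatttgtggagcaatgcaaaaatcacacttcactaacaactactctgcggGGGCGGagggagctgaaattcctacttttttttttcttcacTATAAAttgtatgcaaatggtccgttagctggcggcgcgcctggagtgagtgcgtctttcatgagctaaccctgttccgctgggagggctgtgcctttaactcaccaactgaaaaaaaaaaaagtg

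The Thbs4 window was the richest in G and C, at 70.8%, with 3 GC boxes, 2 overlapping TEAD motifs from -197 to -187 and 1 GGA box. The Thbs2 window had 46.8% G and C and held 1 TATA box on the opposite strand, 2 CCAAT boxes and 1 GGA box. The Tnc window had 44.8% G and C, a TATA box from -126 to -121 and a GC box from -167 to -162. Another RefSeq start of Tnc, not shown, had a window with 51.2% G and C and 79 bases in GENCODE exons of Tnc. Counted from that start, the TATA box ran from -205 to -200 and the GC box from -246 to -241. Among 32851 promoter windows of the same length, 32.7% held a GC box, 12.4% a TATA box, 12.6% the TEAD motif, 33.8% a CCAAT box, 29.2% a GGA box and 6.75% the AP-1 motif. Among the 15720 windows of tested genes, 51.4% held a GC box, 8.41% a TATA box, 11% the TEAD motif, 35.0% a CCAAT box, 32.9% a GGA box and 5.24% the AP-1 motif. No AP-1 motif was found in these 3 windows, and no motif was shared by all of them.

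Levels were compared between genes as CPM per kilobase of exons. Sparc was the highest in each of the 12 tumours, at 313.7 ± 52.6 CPM per kb (SD over 12 tumours), followed by Thbs2 at 112.8 ± 18.9 and Thbs1 at 49.95 ± 11.3. These 3 kept their order in each tumour, and Sparc, on chromosome 11 from 55394500 to 55423183, lay above 99.8% of tested genes in mean CPM. Tnc at 17.5 ± 5.16, Sparcl1 at 14.7 ± 2.64, Thbs4 at 10.3 ± 4.02, Thbs3 at 8.67 ± 0.82 and Postn at 7.83 ± 2.88 CPM per kb formed a middle group. Between neighbours in that middle group, the ranges of mean ± SD over the 12 tumours of both groups overlapped, and no pair kept its order in each tumour. Tnc lay above Sparcl1 in 7 of 12 tumours and Thbs4 above Thbs3 in 7 of 12. Sparcl1 lay above Thbs4 in 10 of 12 and Thbs3 above Postn in 9 of 12, each in all 6 PBS tumours. With the longest protein-coding transcript as the length, Postn moved to 21.3 CPM per kb, the fourth place. Comp was the lowest in each tumour at 0.112 ± 0.08 CPM per kb, from 2 to 38 counts in anti-CD4 and 6 to 27 counts in PBS tumours.

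**Figure D1:**
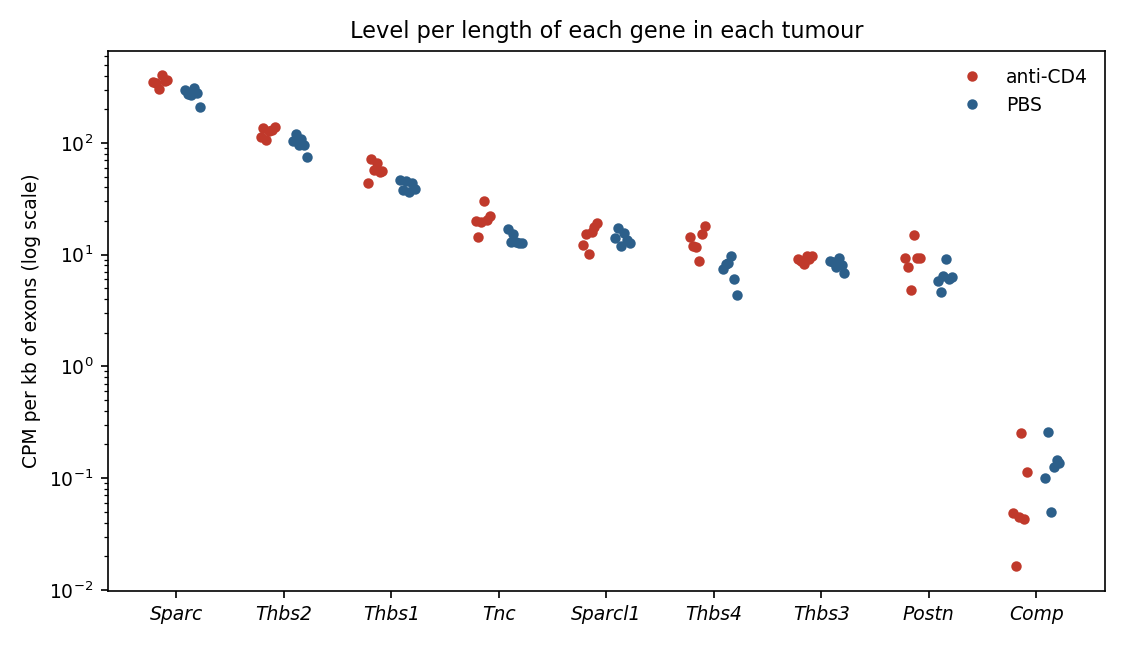
Level of each gene in CPM per kb of exons, on a log scale, with 1 point per tumour and anti-CD4 tumours left of PBS tumours. Sparc, Thbs2 and Thbs1 lay above the other genes in each tumour, and Comp lay below them at 0.112 CPM per kb on average.

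Between the groups, Thbs1, Thbs4, Sparc and Tnc were called higher in anti-CD4 tumours, 4 of the 9 genes, and none was called lower. A gene was called where edgeR's adjusted p over all tested genes was under 0.05, a rule met in the higher direction by 2.95%, in the lower direction by 2.33% and in either by 5.28% of tested genes. The members were chosen with this contrast known, so nothing is read from that difference in shares. The log2 fold change was positive for 8 of the 9, as for 49.9% of all tested genes, with a median of 0.37 over the members and -0.0003 over all tested genes. None of the 9 had groups that did not overlap, a pattern seen in the higher direction for 1.93% and in the lower for 1.19% of tested genes. In a bulk tumour, fewer cells of a type and less RNA per cell cannot be told apart.

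Thbs1, on chromosome 2 from 118111876 to 118127133, encodes thrombospondin-1, an activator of latent TGF-beta and an inhibitor of angiogenesis. In CPM it ran from 267.7 through a median of 345.0 to 434.8 CPM in anti-CD4 tumours, against 221.0 through 250.3 to 283.8 CPM in PBS tumours. In 5 of 6 anti-CD4 tumours it lay above each PBS tumour, and anti-CD4 1 fell within the PBS range. This gave a log2 fold change of 0.49 (SE 0.10), which was called. The noncoding gene Gm29233, on the opposite strand, shares 208 exon bases with Thbs1 and was not analysed here.

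Thbs2, on chromosome 17 from 14665500 to 14694235, encodes thrombospondin-2, which regulates collagen fibril assembly and also restrains vessel growth. It lay between 746.9 and 963.9 CPM with a median of 903.2 in anti-CD4 tumours, against 525.3 to 843.0 CPM with a median of 702.4 in PBS tumours. The groups overlapped, with 4 anti-CD4 tumours above the PBS range and PBS 6 far below the rest. Its log2 fold change of 0.33 (SE 0.10) was not called by edgeR with all tumours, but it was called by DESeq2, by limma voom and by edgeR without anti-CD4 1.

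Thbs4, on chromosome 13 from 92751590 to 92794818, encodes thrombospondin-4, a protein of muscle, tendon and vessel matrix. It had the largest difference of the 9 genes, with 28.6, 43.3 and 58.9 CPM as the lowest, median and highest anti-CD4 values, against 14.2, 25.7 and 31.7 CPM in PBS tumours. Only anti-CD4 4 fell within the PBS range, and only PBS 4 within the anti-CD4 range. The mean was 43.8 ± 10.7 CPM in anti-CD4 and 24.2 ± 6.21 CPM in PBS tumours (SD over 6 tumours each), and the log2 fold change, which was called, was 0.86 (SE 0.20).

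Thbs3, on chromosome 3 from 89215180 to 89226837, encodes a pentameric thrombospondin of cartilage and skeletal development. Its values were the tightest of the family, from 39.8 to 46.6 CPM in anti-CD4 and from 33.2 to 45.1 CPM in PBS tumours, and most of the values overlapped. At 0.14 (SE 0.07), its log2 fold change was not called by edgeR, whereas limma voom called it. Mtx1 spans the whole gene on the opposite strand and shares 318 exon bases with it, so with the strand setting not given in the sources used here the Thbs3 count is uncertain by that overlap.

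Comp, on chromosome 8 from 70373558 to 70382066, encodes the cartilage oligomeric matrix protein. It was near the limit of detection, at 0.0484 to 0.756 CPM with a median of 0.139 in anti-CD4 tumours and 0.147 to 0.762 CPM with a median of 0.392 in PBS tumours. In 4 anti-CD4 tumours the level lay below each PBS tumour, and anti-CD4 4, at 0.756 CPM, lay near PBS 2, the highest. Its log2 fold change of -0.58 (SE 0.54) was not called. It was -1.26 without anti-CD4 4, -0.38 without anti-CD4 2 and -0.30 without PBS 2. A difference of this gene was not resolved at these counts.

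**Figure D2:**
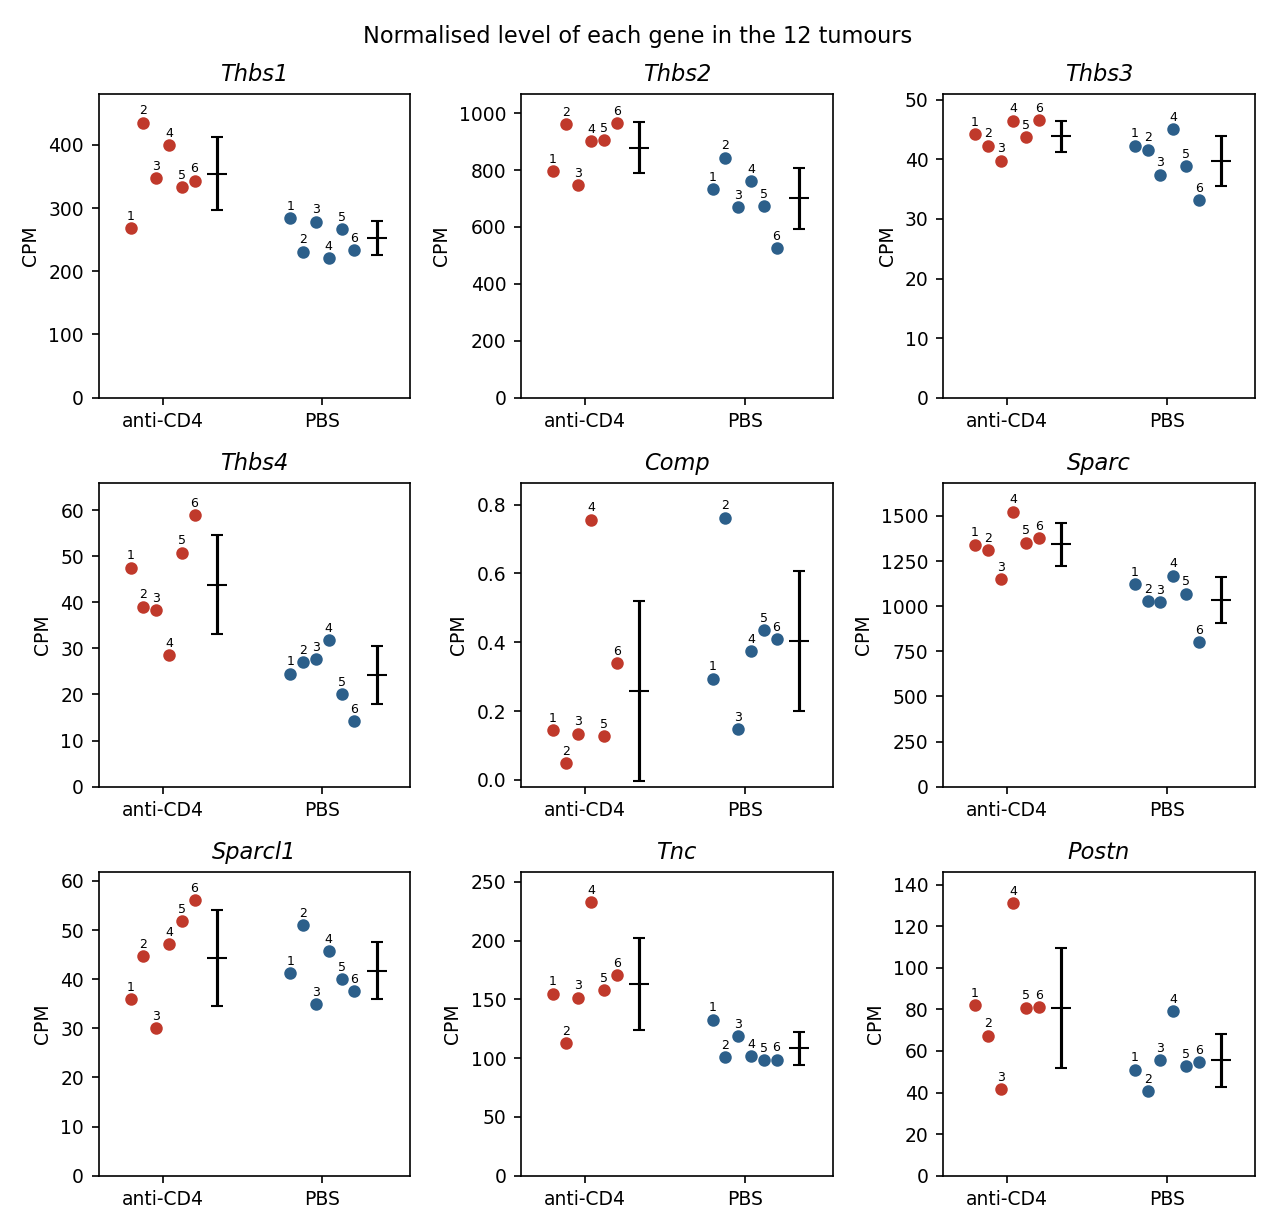
CPM of the 9 genes, with 1 numbered point per tumour, anti-CD4 left and PBS right, and the mean with its SD beside each group (n = 6). For Thbs4 and Sparc, 5 of 6 anti-CD4 tumours lay above each PBS tumour, while for Sparcl1 each PBS tumour lay inside the anti-CD4 range.

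Sparc was at 1150 to 1524 CPM with a median of 1346 in anti-CD4 tumours, against 801.0 to 1169 CPM with a median of 1048 in PBS tumours. The groups met only at anti-CD4 3, the lowest of its group, which lay below PBS 4. Sparc was called, with a log2 fold change of 0.37 (SE 0.09). Sparcl1, on chromosome 5 from 104079111 to 104113733, encodes hevin, a SPARC relative abundant around blood vessels. It did not follow Sparc, at 30.0 to 56.0 CPM in anti-CD4 and 35.0 to 51.0 CPM in PBS tumours, so that the PBS values lay inside the anti-CD4 range. Its log2 fold change was 0.09 (SE 0.14), not called, and it turned to -0.16 once library depth entered the model.

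Tnc, on chromosome 4 from 63959785 to 64047015, encodes tenascin-C, a ligand of integrins and of the innate receptor TLR4. It ran from 112.9 through a median of 156.4 to 232.8 CPM in anti-CD4 tumours, against 98.6 through 101.3 to 132.7 CPM in PBS tumours. In 5 of 6 anti-CD4 tumours it exceeded each PBS tumour, anti-CD4 4 was the highest, and anti-CD4 2 fell within the PBS range. Tnc was called, with a log2 fold change of 0.59 (SE 0.14). The noncoding gene 8030451A03Rik shares 176 exon bases with Tnc on the opposite strand and was not analysed here.

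Postn, on chromosome 3 from 54361109 to 54391037, varied more among anti-CD4 tumours, relative to its mean, than any other member but Comp, at 80.7 ± 29.1 CPM against 55.6 ± 12.7 CPM in PBS tumours (SD over 6 tumours each). Its lowest, median and highest values were 41.8, 81.0 and 131.0 CPM in anti-CD4 tumours and 40.6, 53.7 and 79.2 CPM in PBS tumours. Anti-CD4 4 stood highest and anti-CD4 3, at 41.8 CPM, lay just above PBS 2, the lowest of all 12, and the groups overlapped. The log2 fold change of 0.54 (SE 0.23) was not called and lay between those of Thbs1 and Tnc, which were called.

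**Figure D3:**
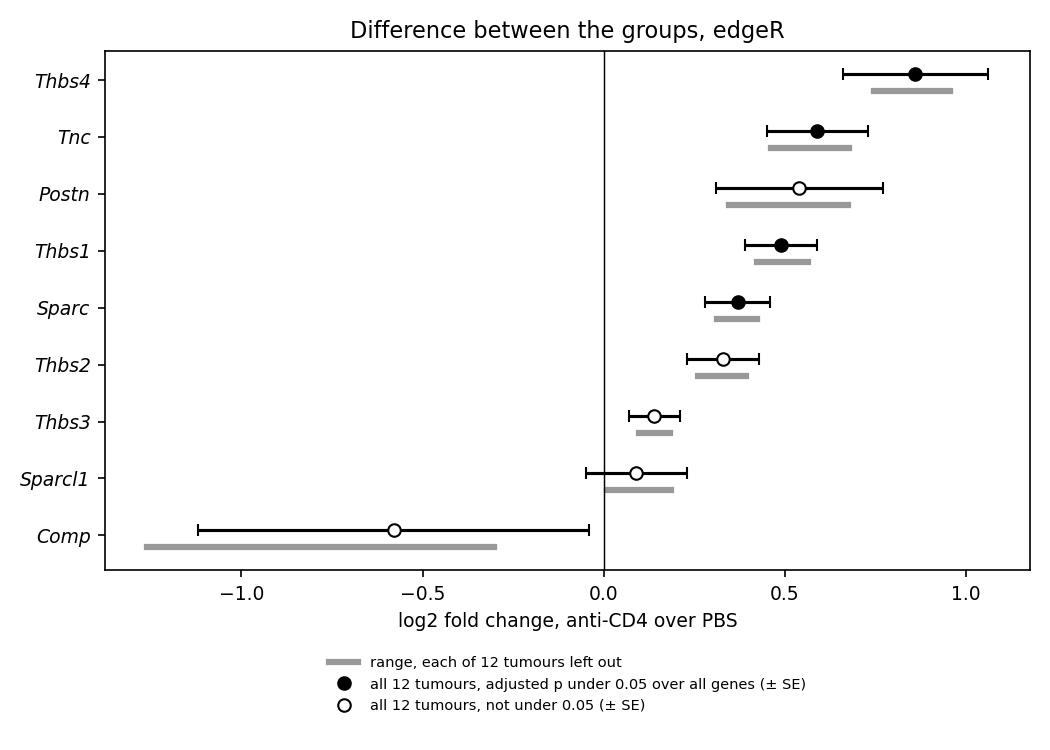
Log2 fold change of each gene, anti-CD4 over PBS, with its SE from edgeR (circles, filled where the adjusted p over all genes was under 0.05) and the range when each of the 12 tumours is left out (grey bars). Thbs4 at 0.86 was the largest, and the range of Comp, from -1.26 to -0.30, was the widest.

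The direction of each difference held when any 1 tumour was left out, but the calls did not. Of the 9 genes, 0 were called without anti-CD4 5, without anti-CD4 6, without PBS 2 and without PBS 6. In these fits 35, 54, 120 and 91 genes were called higher over the whole table, in place of 529. Only 1 was called without anti-CD4 2, without PBS 3 and without PBS 5, where the whole table had 29, 67 and 99 genes called higher. With library depth in the model 0 members were called, and over all genes 0 were called higher and 5 lower. In that model the log2 fold change was 0.35 (SE 0.12) for Thbs1, 0.80 (SE 0.26) for Thbs4, 0.33 (SE 0.11) for Sparc and 0.40 (SE 0.16) for Tnc. Within the groups, none of the 9 genes passed a correlation with the log2 library total over the 12 tumours, adjusted over 9 relations. The highest value was that of Sparcl1, at r = 0.58 (permutation p = 0.0473, adjusted p = 0.333) and rho = 0.49 (permutation p = 0.109, adjusted p = 0.421), with r of 0.87 among anti-CD4 and -0.39 among PBS tumours and 0.28 without anti-CD4 3 and anti-CD4 6. Tnc had r = 0.50 (permutation p = 0.0917, adjusted p = 0.333) and rho = 0.62 (permutation p = 0.0375, adjusted p = 0.338), and Thbs1 had r = 0.48 (permutation p = 0.111, adjusted p = 0.333) and rho = 0.45 (permutation p = 0.14, adjusted p = 0.421). Among anti-CD4 and PBS tumours, in that order, r was 0.41 and 0.83 for Tnc and 0.41 and 0.72 for Thbs1. For the other called members it was 0.20 and -0.10 for Thbs4 and 0.56 and -0.15 for Sparc. A p above the threshold does not show that depth had no part. With upper quartile scaling 1 was called, while the calls over all genes were 179 higher and 325 lower in place of 529 and 418. With the adipocyte marker score in the model 2 members were called, among 128 genes called higher over the whole table. With no filter on low counts 2 members were called, among 272 such genes. DESeq2 called 5 and limma voom 6, among 1337 and 2809 genes called higher over the whole table. Thbs1 kept its call in 7 of the 12 fits that leave out a tumour, Tnc in 5, and Thbs4 and Sparc in 4 each.

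Some fibroblast, T cell and mesothelial markers were called between the groups, and marker sums also varied among single tumours. Over all 11 fibroblast markers, the summed level ran from 11443 to 16145 CPM in anti-CD4 tumours and from 7303 to 13310 CPM in PBS tumours, and 2 of the 11, Lum and Pdgfra, were called higher. At an unadjusted p under 0.05, which 28.0% of all tested genes met, 8 of the 11 passed, including Thy1, which was lower in anti-CD4 tumours. Col1a1 and Col1a2 made up 89.1% to 90.8% of this sum in anti-CD4 tumours and 87.7% to 91.7% in PBS tumours, and Thy1, with a log2 fold change of -0.72 that was not called, ran the other way. The 7 T cell markers summed to 6.61 to 29.9 CPM in anti-CD4 tumours and 25.4 to 53.2 CPM in PBS tumours, with 3 called lower and 6 of the 7 at an unadjusted p under 0.05. PBS 6, which had the lowest level of Thbs2, Thbs3, Thbs4 and Sparc among the 12 tumours, had the lowest fibroblast sum and the highest T cell sum, although Dcn, Lum and Pi16 were lower in PBS 2. Anti-CD4 4, which had the highest level of Sparc, Tnc and Postn, had the highest fibroblast, endothelial and pericyte sums. Single markers did not all follow, since Cdh5, Kdr, Emcn, Cldn5 and Cspg4 were higher in anti-CD4 6. Pecam1, Tie1 and Rgs5 were higher in PBS 2, and Pdgfra in anti-CD4 2. In the endothelial sum, Vwf was at 76.0 CPM in anti-CD4 4 and at 5.12 to 44.7 CPM in the other tumours. The part of these markers in the members' differences was not tested.

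No gene was called by edgeR in the lists for skeletal muscle, tendon and cartilage, adipocytes, blood endothelium, pericytes and smooth muscle, platelets and macrophages. At an unadjusted p under 0.05, which 28.0% of all tested genes met, 3 macrophage markers passed, 1 each in the muscle, tendon, endothelial and platelet lists, and 0 in the adipocyte and pericyte lists. The 14 skeletal muscle markers, which matter for Thbs4 and Comp, summed to 1047 to 5036 CPM in anti-CD4 and 935 to 6199 CPM in PBS tumours. Of 12 tendon and cartilage markers only 6 could be tested, since Tnmd, Acan, Col2a1, Col9a1, Matn1 and Matn3 were near 0, and the sum, mostly Cilp, was 128 to 199 CPM in anti-CD4 tumours against 122 to 183 CPM in PBS tumours. The 8 adipocyte markers summed to 20.3 to 441 CPM in anti-CD4 and 80.9 to 282 CPM in PBS tumours, with anti-CD4 4 the highest. The 9 endothelial markers summed to 149 to 291 CPM in anti-CD4 against 168 to 227 CPM in PBS tumours, and the 8 pericyte and smooth muscle markers to 131 to 245 CPM in anti-CD4 against 151 to 186 CPM in PBS tumours. The 6 platelet markers, relevant to Thbs1 because platelets store thrombospondin-1, summed to 14.95 to 17.7 CPM in anti-CD4 and 9.82 to 16.7 CPM in PBS tumours. The 8 macrophage markers summed to 1692 to 1987 CPM in anti-CD4 and 1698 to 3058 CPM in PBS tumours. Of 8 mesothelial markers 1, Pdpn, was called higher, and the sum was 133 to 201 CPM in anti-CD4 and 126 to 173 CPM in PBS tumours.

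How the genes varied among tumours of the same group is separate from the difference between groups. The log2 CPM of each gene was taken as a deviation from its group mean, and all 36 pairs were correlated over the 12 tumours. The correlation was positive for 29 pairs, with a median Pearson r of 0.37. Only 2 pairs passed the permutation test, which shuffled deviations across both groups, adjusted over the 36. Thbs3 and Sparc varied together, with r = 0.91 (permutation p = 6e-05, adjusted p = 0.00216) and Spearman rho = 0.85 (permutation p = 0.00103, adjusted p = 0.0185). Within the groups r was 0.91 in anti-CD4 and 0.92 in PBS tumours, and without PBS 4 and PBS 6, the tumours farthest from the median of Thbs3, it was 0.80. Thbs2 and Thbs3 gave r = 0.81 (permutation p = 0.00195, adjusted p = 0.0351) and rho = 0.71 (permutation p = 0.0123, adjusted p = 0.147). For Thbs2 and Thbs3, r was 0.60 among anti-CD4 and 0.89 among PBS tumours. It was lower, at 0.47, without anti-CD4 3 and PBS 6, the tumours farthest from the median of Thbs2, whose removal also narrows the range.

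Thbs2 and Sparcl1 had r = 0.75 (permutation p = 0.00497, adjusted p = 0.0596) and rho = 0.87 (permutation p = 0.00037, adjusted p = 0.0133), and r was 0.81 without anti-CD4 3 and PBS 6. Sparc and Postn had r = 0.60 (permutation p = 0.0434, adjusted p = 0.195) and rho = 0.60 (permutation p = 0.0424, adjusted p = 0.254). Sparc and Postn were tightly related among anti-CD4 tumours (r = 0.99) and less among PBS tumours (r = 0.28), a contrast that was not tested. Thbs1 and Thbs4, both called higher between the groups, had r = -0.31 within them (permutation p = 0.331, adjusted p = 0.567) and rho = -0.37 (permutation p = 0.236, adjusted p = 0.472). Comp and Tnc had r = 0.56 (permutation p = 0.058, adjusted p = 0.232) and rho = 0.13 (permutation p = 0.699, adjusted p = 0.839) over the 12 tumours, but r was -0.35 without anti-CD4 2 and anti-CD4 4, so that value rested on those tumours.

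**Figure D4:**
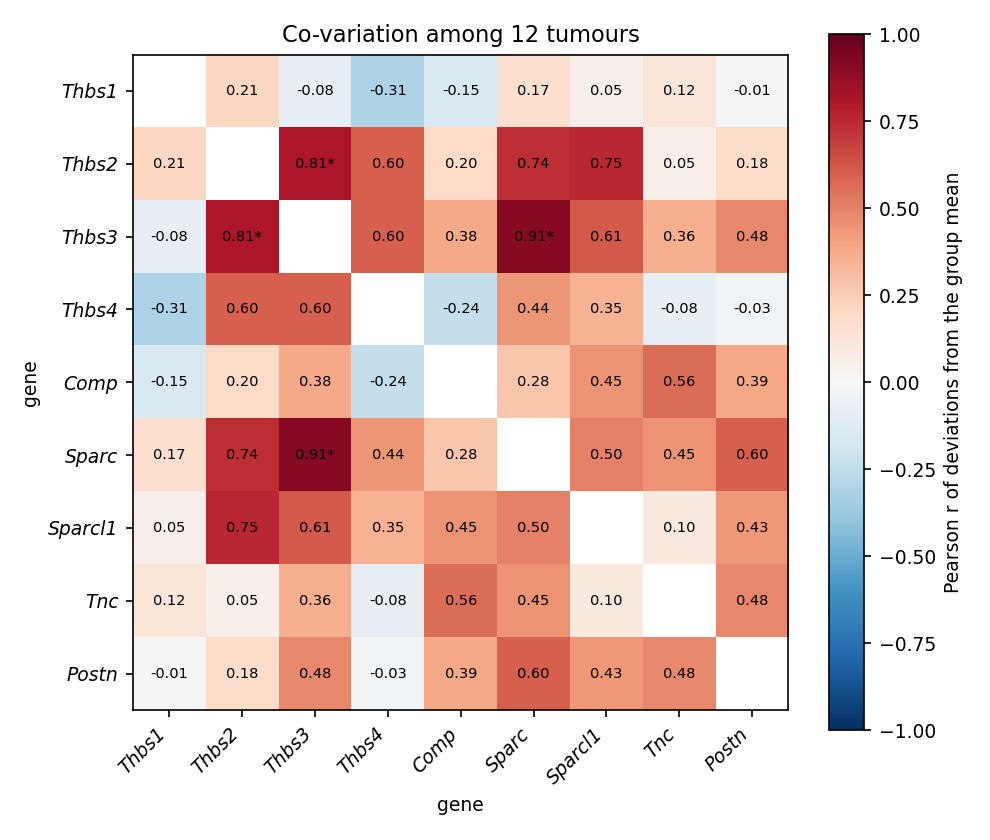
Pearson r between each pair of genes over 12 tumours, on log2 CPM minus the group mean, with an asterisk where the permutation p adjusted over 36 pairs was under 0.05. Pairs among Thbs2, Thbs3, Sparc and Sparcl1 have r of 0.50 to 0.91, and 2 of them carry an asterisk. Of the other pairs, Thbs4 with Thbs2, Thbs4 with Thbs3 and Sparc with Postn each have r of 0.60, and Comp with Tnc 0.56. Thbs1 has no r above 0.21.

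**Figure D5:**
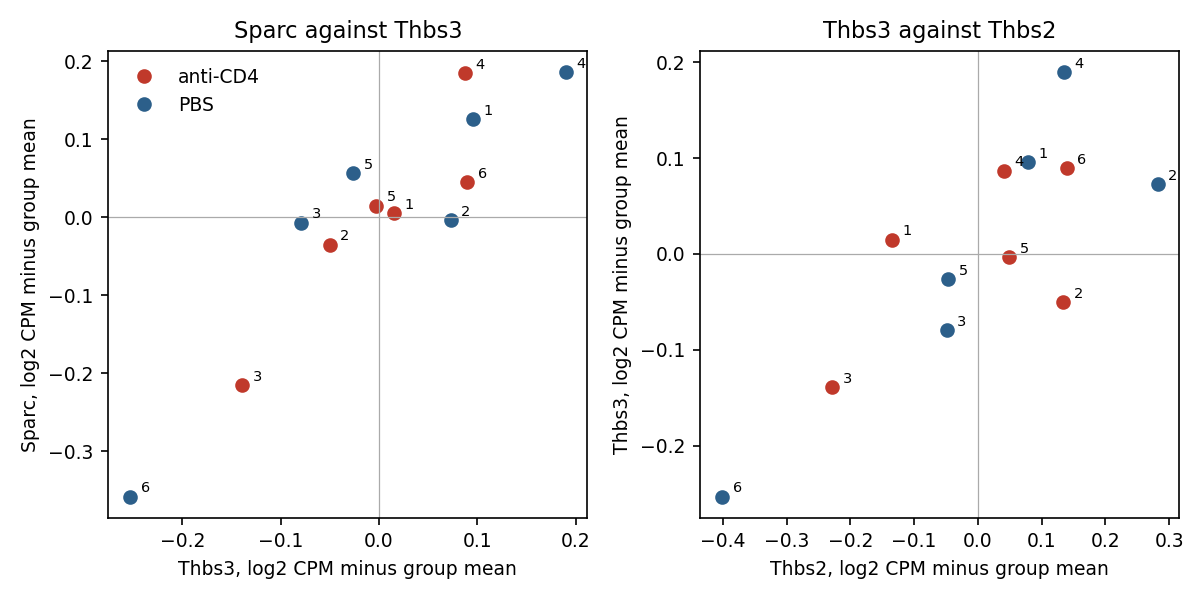
Deviations of log2 CPM from the group mean, with 1 numbered point per tumour, for Sparc against Thbs3 (left) and Thbs3 against Thbs2 (right). PBS 6 and anti-CD4 3 lie lowest in both panels, and the left relation has r = 0.80 without PBS 4 and PBS 6.

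Of 90 relations between a member and a marker score, the mean log2 CPM of a marker list, 0 passed the adjusted threshold in the permutation test and 15 had an unadjusted p under 0.05. The closest was Postn with the pericyte and smooth muscle score, at r = 0.85 (permutation p = 0.00061, adjusted p = 0.0549) and rho = 0.70 (permutation p = 0.0136, adjusted p = 0.175), and r was also 0.70 without anti-CD4 3 and anti-CD4 4. Sparc had r = 0.79 with the blood endothelium score (permutation p = 0.00277, adjusted p = 0.102), with rho = 0.80 (permutation p = 0.00256, adjusted p = 0.148). Its r with the platelet score was 0.74 (permutation p = 0.00848, adjusted p = 0.104), with rho = 0.52 (permutation p = 0.0834, adjusted p = 0.421). With the fibroblast score, Sparc had r = 0.71 (permutation p = 0.0112, adjusted p = 0.112) and rho = 0.79 (permutation p = 0.00328, adjusted p = 0.148). With the same score, Postn had r = 0.70 (permutation p = 0.00921, adjusted p = 0.104) and rho = 0.71 (permutation p = 0.0112, adjusted p = 0.175). Thbs4 had r = -0.76 with the T cell score (permutation p = 0.00465, adjusted p = 0.104) and rho = -0.64 (permutation p = 0.0279, adjusted p = 0.279), and r was -0.48 without anti-CD4 4 and PBS 6. Thbs3 had r = 0.79 with the platelet score (permutation p = 0.00339, adjusted p = 0.102), but 0.25 without PBS 4 and PBS 6. With the endothelial score, r was 0.73 for Thbs3 (permutation p = 0.00798, adjusted p = 0.104) and 0.74 for Comp (permutation p = 0.00634, adjusted p = 0.104). That of Comp was 0.48 without anti-CD4 2 and anti-CD4 4.

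The genes whose deviations most resembled each member were sought among 12479 tested genes, as a description over 12 tumours. Those of Thbs2 were Fn1, the fibronectin gene (r = 0.977), and Mpdz (0.971), and those of Sparc were the collagen VI gene Col6a3 (0.97) and Rell1 (0.946). Postn was closest to Lum, the lumican gene (0.943), and to Lrrc15, a marker of activated fibroblasts (0.927). Tnc was closest to Col12a1, a collagen gene (0.876), and Srpx2 (0.857). Thbs3 resembled Sptbn1 (0.942) and Ptgfrn (0.936), and Thbs1 resembled Lims1, a focal adhesion adaptor (0.871), and Hadhb (0.861). Thbs4 was closest to Cc2d2a (0.911) and Cry1 (0.884), Sparcl1 to Disp2 (0.905) and Nfia (0.897), and Comp, at very low counts, to Slc39a8 (0.861) and Flt1 (0.857). Antisense genes share 2.7% of the exon bases of Rell1, 2.5% of Fn1 and 0.766% of Sptbn1.

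None of 14 genes for thrombospondin receptors and partners was called in either direction, and their median log2 fold change was 0.11. In edgeR, 5 of these genes (35.7%) had an unadjusted p under 0.05, against 28.0% of all tested genes, and DESeq2 called 3 higher. The edgeR count was 3 without PBS 1 and 1 without anti-CD4 1. Cd36, the scavenger receptor bound by type 1 repeats, was at 37.5 ± 15.8 CPM in anti-CD4 and 23.4 ± 5.92 CPM in PBS tumours (SD over 6 tumours each), with a log2 fold change of 0.68 ± 0.25 (SE) and an adjusted p of 0.106 in edgeR. Lrp1, an endocytic receptor that clears thrombospondins, differed by 0.25 ± 0.07 (SE) on the log2 scale, with an adjusted p of 0.0539 in edgeR. The heparan sulfate proteoglycan gene Sdc1 differed by 0.22 ± 0.07 (adjusted p of 0.0711 in edgeR) and the integrin gene Itgb1 by 0.17 ± 0.07 (adjusted p of 0.144 in edgeR). Cd47, the other classical receptor of thrombospondin-1, was at 289 ± 21.7 CPM in anti-CD4 and 269.8 ± 8.48 CPM in PBS tumours, a log2 difference of 0.10 ± 0.05 (adjusted p of 0.219 in edgeR).

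Among 20 other matricellular genes, 19 were tested, of which 3 rose, 0 fell and 5 (26.3%) had an unadjusted p under 0.05 in edgeR, against 28.0% of all tested genes. The median over this list was 0.25 on the log2 scale. Fbln5, which encodes the elastic fibre protein fibulin-5, rose to 98.9 ± 9.39 CPM in anti-CD4 tumours, against 73.9 ± 6.33 CPM in PBS tumours (SD over 6 tumours each), a log2 difference of 0.42 ± 0.07 (adjusted p of 0.0133 in edgeR). Fstl1, a secreted SPARC family member, rose by 0.34 ± 0.07 on the log2 scale (adjusted p of 0.0306 in edgeR), and each anti-CD4 tumour, at 724 to 852 CPM, lay above each PBS tumour, at 491 to 689 CPM. Ccn4, a CCN family gene, rose by 0.25 on the log2 scale (SE 0.06, adjusted p of 0.035 in edgeR). Fbln1, the fibulin-1 gene, differed by 0.83 ± 0.26 (adjusted p of 0.074 in edgeR) and was not called. Ccn6, also among the 5, ran the other way, with a log2 difference of -0.73 ± 0.26 (adjusted p of 0.0997 in edgeR), and was not called. The count of genes that rose in this list was 0 without anti-CD4 2, and 1 without anti-CD4 5, anti-CD4 6, PBS 2, PBS 3 or PBS 5.

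Of 17 matrix partners of SPARC, tenascin-C and periostin, 16 were tested, of which 1 rose, 0 fell and 7 (43.8%) had an unadjusted p under 0.05 in edgeR, against 28.0% of all tested genes, and the median was 0.32 on the log2 scale. Matn2, which encodes the adaptor protein matrilin-2, rose to 246 ± 10.1 CPM in anti-CD4 tumours, against 188 ± 31.7 CPM in PBS tumours (SD over 6 tumours each), a log2 difference of 0.38 ± 0.09 (adjusted p of 0.0369 in edgeR). Matn2 shares 70 exon bases with 9430069I07Rik on the opposite strand. Fn1 differed by 0.37 ± 0.11 (adjusted p of 0.0589 in edgeR), the fibrillar collagen gene Col3a1 by 0.43 ± 0.13 (adjusted p of 0.0606 in edgeR) and the collagen VI gene Col6a1 by 0.41 ± 0.13 (adjusted p of 0.0648 in edgeR), and these 3 were not called. The count of 1 became 4 without PBS 1, 2 without anti-CD4 1 or anti-CD4 3, and 0 without anti-CD4 2, 4, 5 or 6 or PBS 3, 5 or 6.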

How the data were processed

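Total RNA of 12 tumours went through an RNA depletion step that included globin RNA, then 100-base paired-end sequencing, per the labels' protocols. Tools and build named in the submitters' processing notes are bcl2fastq 2.20.0.422, kallisto and GRCm38.p6. For each gene symbol the authors deposited an estimated count without scaling. The annotation release, strand setting and filters were not given in the sources used here. Groups came from the sample titles. The members, gene lists, marker lists and alternatives were chosen with earlier results of these data known.

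Estimated counts were rounded, filtered with filterByExpr, scaled by TMM and tested with the quasi-likelihood F test of edgeR 4.0.16 (R 4.3.3), robust, with no covariate. p-values were adjusted by Benjamini-Hochberg over 17940 genes. CPM use the TMM library sizes, log2 CPM a prior count of 2, and the SE of a log2 fold change, taken from the fold change and the root of F, is approximate. Two-sided permutation tests of correlations used 100000 resamples. They shuffled the deviations over all tumours without regard to group, after group means were subtracted, so these p-values can be somewhat too small. Per-length levels and overlaps use GENCODE M21 on GRCm38. Promoters come from RefSeq (GRCm38.p6), in a table with an entry for 6 of the 9 members. The fits were also run on counts simulated with a common dispersion, and the correlations on a planted pair, which does not test the calls in these data. No 2 libraries of a group were copies (chi-square per degree of freedom 8.01 to 61.1 over genes). All 9 members are named, with, in each list, the called genes and those of smallest p up to 4, and the 2 genes most like each member among those averaging at least 1 in log2 CPM. Cd4, Cd47, Ccn6 and some marker genes were named outside that rule, and Cd47, Ccn6 and the promoters shown were chosen after their values were seen. The 26 rows whose names had turned into dates, 0.227% of counts, stayed in the fit. Alternatives were RLE and upper quartile scaling, DESeq2 1.42.0, limma 3.58.1 (voom), filters, a replicate block, covariates and leaving out tumours.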

Additional observations from a re-analysis of the deposited data

How the results depend on the processing

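Each log2 fold change of a member kept its sign under each alternative that gave a value, except Sparcl1, which was -0.16 with library depth in the model. Comp was not tested under the stricter filter. Called members, 4 with all settings as described, numbered 5 with DESeq2, 6 with limma voom, 1 with upper quartile scaling, 2 with no filter, 2 with the adipocyte score, 0 with the library total and 0 with the replicate block, and 0 to 5 when 1 tumour was left out, with none called lower in any of these. The same-numbered tumours of the groups had r from -0.41 to 0.23, and no tumour correlated best with its own number. So few values cannot settle whether tumours of the same number share a cage, day or batch, and the labels give no pairing. The replicate block left 19 genes higher and 14 lower across the table, with 0 other matricellular genes and 0 matrix partners.

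Across all genes, 529 were called higher and 418 lower. They numbered 179 and 325 with upper quartile scaling, 1337 and 1157 with DESeq2, 2809 and 3169 with limma voom, 272 and 251 with no filter, 0 and 5 with the library total, 1057 and 905 with the skeletal muscle score, 128 and 80 with the adipocyte score, and 705 lower without anti-CD4 3 and 4. Leaving out 1 tumour gave 29 to 1160 higher and 31 to 1480 lower.

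Higher genes among 14 thrombospondin receptors and partners numbered 3 with DESeq2, 4 with limma voom, 3 with the muscle score, 1 with the adipocyte score and 0 to 3 when 1 tumour was left out. Higher matrix partners numbered 0 with upper quartile scaling, the library total or the adipocyte score, 5 with DESeq2, 8 with limma voom, 2 with the muscle score, 2 without anti-CD4 3 and 4, and 0 to 4 when 1 tumour was left out. Higher matricellular genes outside the 9 numbered 0 with the library total, 1 without anti-CD4 3 and 4 and 0 to 4 when 1 tumour was left out, and 1 was lower with limma voom (0 to 1 with a tumour left out).

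Pairs of members passing the correlation test numbered 1 with upper quartile scaling, and 1 to 7 when 1 tumour was left out, with 7 without anti-CD4 4. Relations with marker scores, recomputed under alternatives chosen after seeing the data, numbered 1 with upper quartile scaling and 0 to 2 when 1 tumour was left out. The causes of these changes were not tested. Depth limits Comp most, at 2 to 38 counts a tumour.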
